A study of Mus musculus with 6 samples.

Results

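Among the 2744 genes of the deposited PRO-seq table, 72 bear names of the cell cycle and DNA replication machinery, and they are the subject here. They were chosen by symbol alone, as genes whose names start with Mcm, Orc, Cdc, Cdk, Ccna, Ccnb, Ccnd, Ccne, Rfc, a DNA polymerase prefix, Prim, Fanc, Brca, Rad, Xrcc, Msh, Cenp, Kif, Aurk, Bub, Nek, E2f, Smc, Ncap, Haus or Cep, in most cases followed by a digit. The rule uses no measured value, but it was chosen with earlier results of these data known. Every row of the table had also passed the authors' own test of gene body counts, so the table itself was selected on that comparison. A rule on names also takes in genes that share a prefix and not a function, and the members were therefore sorted by textbook role into 12 groups. Of these, 8 groups (42 genes) hold the core machinery: replication factors, cyclins and cell cycle CDKs, CDK inhibitors, E2F factors, kinetochore genes with Aurka, mitotic kinesins, cohesin and condensin, and DNA repair. The other 4 groups (30 genes) hold centrosome and NEK genes, CDK-named genes outside the core cycle, kinesins of transport and cilia, and kinases and other effectors that bind CDC42. These unions of 8 and of 4 groups were formed after the values were seen, so they are described with no test.

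A dividing cell copies its DNA in S phase and separates the copies in mitosis. The MCM helicase, primase, the clamp loader and the DNA polymerases carry out the copying, and cyclins with their CDKs order the steps, held back by CDK inhibitors. Many of these genes are transcribed in waves: E2F factors act on S phase genes, and late genes carry CHR elements next to CCAAT boxes through which the DREAM complex and B-MYB with FOXM1 act. Progenitors of the bone marrow divide often, and most leave the cycle as they mature.

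PRO-seq maps engaged RNA polymerase: isolated nuclei resume transcription with biotinylated nucleotides, here for 3 min, and the tagged RNA is sequenced. The cells were cKIT+ bone marrow progenitors of female C57/BL6 mice that were Mllt3 flox/flox and Rosa26Cre+. They were transduced with wild-type MLLT3 (WT, 3 libraries) or with MLLT3 K63E K67E (double mutant, DM, 3 libraries), sorted, and kept for 8 days in methylcellulose with haematopoietic cytokines and 200 nM 4-hydroxytamoxifen. The tamoxifen was to delete the cells' own Mllt3 in both groups. The Mllt3 body itself held 80.6, 77.2 and 95.3 RPM in WT and 58.4, 63 and 58.9 RPM in DM, lower in DM by 0.49 on the log2 scale (adjusted edgeR p 0.0037), and these counts cannot tell the cells' own gene from an introduced copy. MLLT3 reads acylated histones through its YEATS domain, and the comparison asks how transcription differs with the K63E K67E protein.

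Library totals ran from 15112853 to 22981603 reads, and the labels place all 6 libraries in batch 1 without saying whether they came from separate animals or cultures, so p-values measure only the spread between these libraries. Each transcript was counted in a head window of 330 bp that began 30 bp upstream of the start, and in the body, which is the rest of the transcript. Levels are reads per 1000000 of the library total (RPM). Changes are log2 fold changes of DM over WT from edgeR's quasi-likelihood test with Benjamini-Hochberg adjustment over all genes tested, called at an adjusted p under 0.05. WT replicate 1 was the highest WT library in body RPM for 28 of the 42 core genes, against 861 of the 2744 genes of the table. In head RPM, WT replicate 2 stood above the mean of the other WT libraries by a median factor of 1.43 over the members and 1.40 over the table. Kit, the receptor used for selection, was read in every library, with a body of 1224, 1031 and 1543 RPM in WT and 651, 667 and 654 RPM in DM. Of the 8 stem and progenitor markers held, Hoxa9 at 0.0876 to 2.18 RPM and Procr at 0.662 to 2.5 RPM were the lowest. All 72 members had enough reads for the body and head tests, with a mean of at least 83.3 body reads per library.

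The core cell cycle genes were lower in DM: 40 of the 42 had a negative body change, with a median log2 change of -0.50, while the median over all genes of the table was 0.40. Summed over the 42 genes, body signal was 2038, 1742 and 1959 RPM in WT and 1461, 1498 and 1396 RPM in DM, a fold of 0.759, and the libraries of the groups did not overlap. The other 4 groups went both ways, with 15 genes higher and 15 lower and a median of -0.02. Their summed body signal was 1568, 1382 and 1621 RPM in WT and 2064, 1943 and 2031 RPM in DM, a fold of 1.32. Much of that rise lay in Nek6, and without it, a setting chosen after seeing the data, the fold was 1.17 (log2 change 0.22). Nek6 encodes a mitotic kinase sorted with the NEK genes, so the summed folds of both unions depend on that placement. Body signal summed over all genes of the table rose as well, with a log2 change of 0.18. It went from 171185 ± 12488 RPM in WT to 194474 ± 4836 RPM in DM (SD, n = 3 each). Without Nek6 the 4 other groups thus rose about as much as the table. Body signal summed over all 72 members overlapped between the groups, at 3436 ± 271 RPM in WT and 3464 ± 52.9 RPM in DM (SD, n = 3 each), and without Nek6 at 3012 ± 262 and 2735 ± 33.2 RPM.

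**Figure D1:**
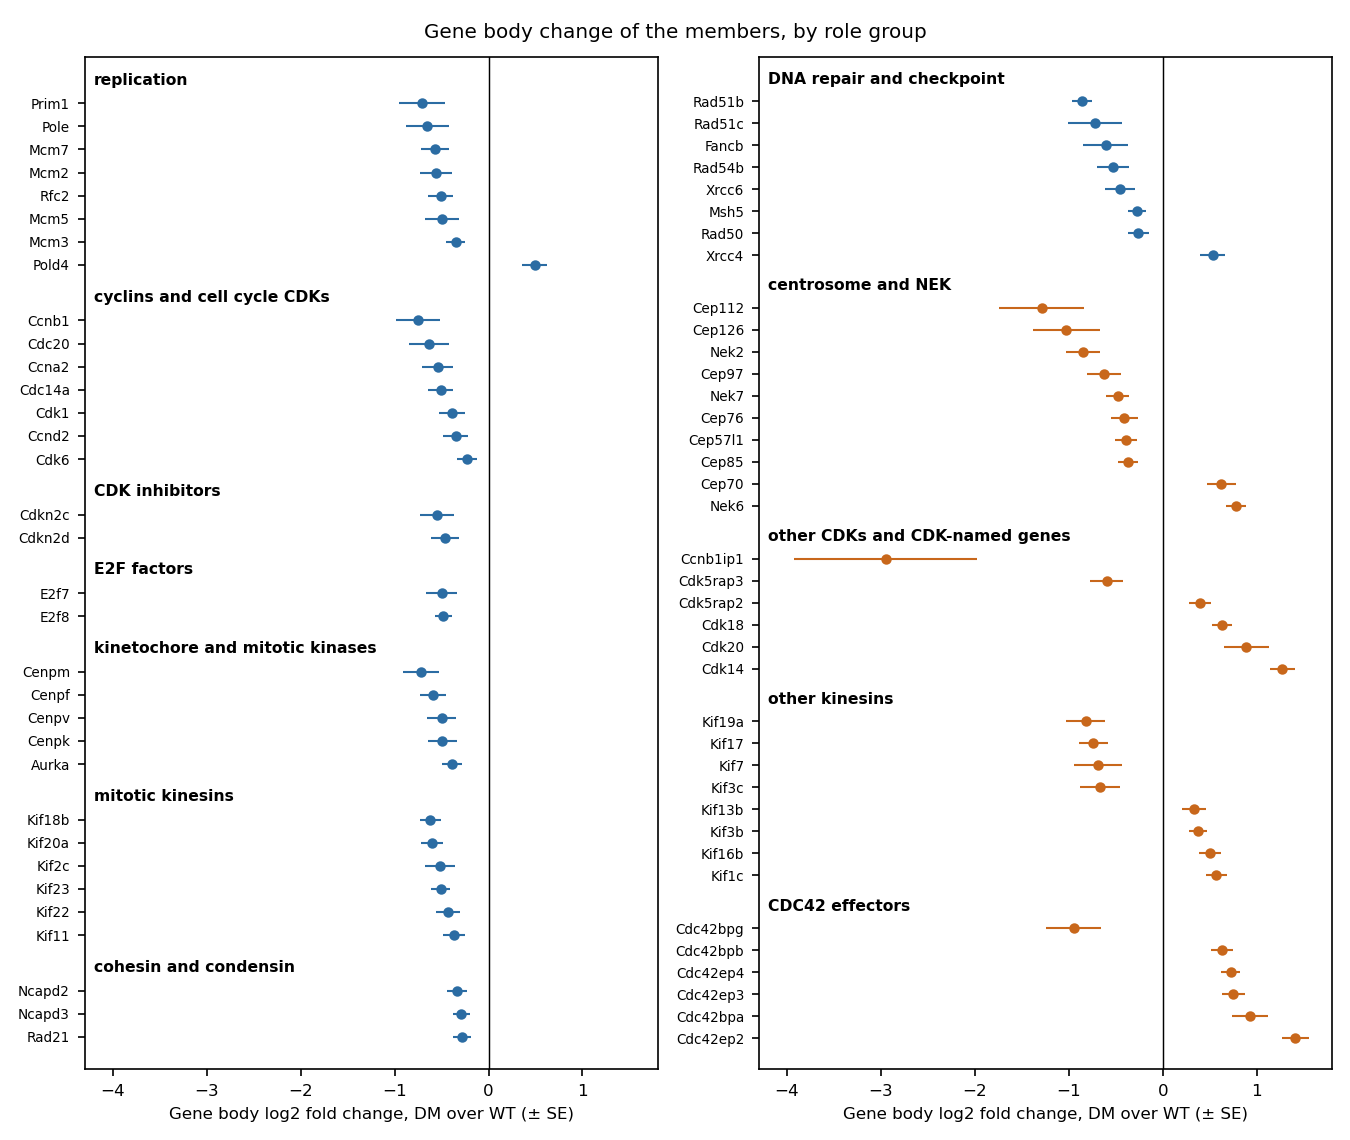
Gene body log2 change of DM over WT for 71 of the 72 members, by role group (points: edgeR estimate; bars: ± SE; blue: the 8 core groups; orange: the 4 other groups). In the core groups only Pold4 and Xrcc4 lie to the right of 0, and in the other groups 15 of 30 genes do.

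By the test, 71 of the 72 members were called in the body, 17 higher and 54 lower. Since the table was selected on this comparison, 99.5% of its tested genes were called, 57.4% higher and 42.1% lower, and the calls themselves say nothing of the members. The split by direction is what differs from the background: the authors' deposited table had 55 of 72 members (76.4%) and 40 of the 42 core genes (95.2%) lower, against 43% of all genes held. That contrast is a description of rows that all passed the authors' test, not of all expressed cell cycle genes. Of the 42 core genes, 39 were called lower and 2 higher, and 35 stayed called lower without WT replicate 1 (median -0.38). Without DM replicate 1 or 3 this fell to 19 and 20 genes, and in every such refit 40 of 42 kept a negative change. The table's share of calls in these refits is not given, so the loss is not read as a trait of the core genes.

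Markers of other maturation states moved in the same libraries. Those held had passed the authors' body test, and 99.5% of all tested genes were called in the body (57.4% higher, 42.1% lower). A body call of a held marker therefore says nothing by itself, and the direction and size of change are described. Summed body signal of 8 held stem and progenitor markers of 10 listed was 2806 to 3584 RPM in WT and 1725 to 1795 RPM in DM, with 6 of 7 tested genes called lower and Procr called higher (log2 change 1.26). All 7 held mature myeloid markers of 12 listed were called higher, and their sum was 242 to 311 RPM in WT and 657 to 732 RPM in DM. All 4 held erythroid and megakaryocyte markers of 9 were called lower, from 197 to 223 RPM in WT to 107 to 125 RPM in DM, and so were 3 of 6 mast and basophil markers, from 1188 to 2204 RPM to 943 to 1018 RPM. None of the markers held was at 0 in a library. Their part in the cell cycle result was not tested, and in these bulk libraries fewer cells of a type and less transcription per cell cannot be told apart.

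**Figure D2:**
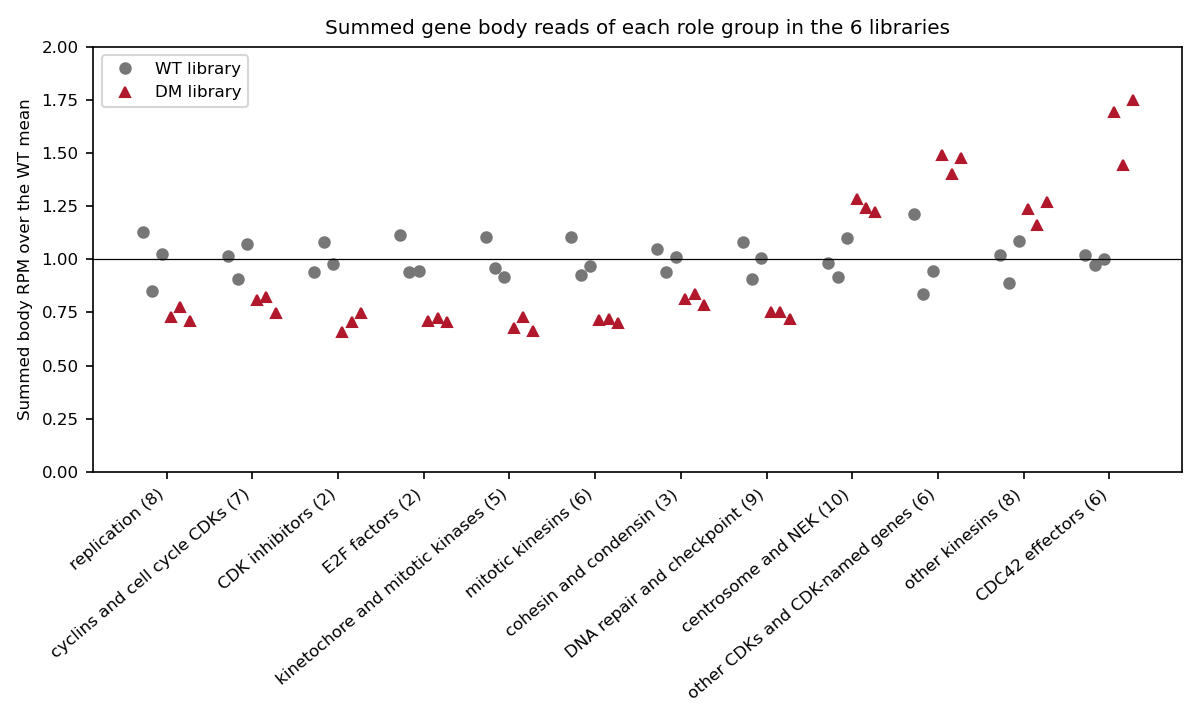
Summed gene body RPM of each role group in each of the 6 libraries, divided by the mean of the WT libraries (grey circles: WT; red triangles: DM; number of genes in brackets). In the 8 core groups the 3 DM libraries lie under the WT mean and under each WT library, and in the 4 groups on the right they lie above it.

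Replication genes fell together, with 7 of 8 called lower and 1 higher in the body and a median of -0.53. The group's summed body signal was 338, 256 and 307 RPM in WT and 219, 233 and 213 RPM in DM. Mcm2, Mcm3, Mcm5 and Mcm7, subunits of the replicative helicase, fell by 0.56, 0.35, 0.50 and 0.57 on the log2 scale (adjusted edgeR p 0.0121, 0.0106, 0.0238 and 0.00756). Mcm7, for example, held 27.9, 22.6 and 19.3 RPM in WT and 15.5, 15.6 and 16.0 RPM in DM. The largest fall of the group was in Prim1, the catalytic subunit of primase, at -0.71 (SE 0.248, adjusted edgeR p 0.0212). Pole, the catalytic subunit of the leading-strand polymerase, fell by 0.65 (adjusted edgeR p 0.0232), and its WT values of 36.9, 20.9 and 19.6 RPM were led by replicate 1. Without DM replicate 1 or 3 the calls of the group went down to 3 and 4 lower. Mcm5 lost its call without WT replicate 1, Mcm3 without DM replicate 1, and Mcm5, Pole and Prim1 without DM replicate 1 or 3. Rfc2, of the clamp loader, fell by 0.51, but its span overlaps Lat2, and whether reads were counted by strand is not stated. It held 145, 114 and 159 RPM in WT and 97.4, 103 and 94.6 RPM in DM, the largest part of the group's sum. Pold4, a small accessory subunit of polymerase delta, was the exception and rose from 13.4, 14.6 and 17.4 RPM to 22.4, 21.6 and 19.7 RPM, a log2 change of 0.49 (adjusted edgeR p 0.00931). With factors from TMM or DESeq2, Pold4 was no longer called.

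The group of cyclins and cell cycle CDKs, which also holds Cdc20 and Cdc14a, was lower in all 7 genes by sign, and 6 were called. Ccnb1, the mitotic cyclin, fell most, from 22.4, 13.3 and 12.3 RPM to 9.72, 9.89 and 8.96 RPM (log2 change -0.75, SE 0.233, adjusted edgeR p 0.0141). Every DM library lay below every WT library. Cdc20, which activates the anaphase-promoting complex, fell by 0.63 and Ccna2, the cyclin of S phase and G2, by 0.54, though each shares its span with another gene (Elovl1 and Exosc9). Cdk1, the kinase that drives entry into mitosis, had 61.1, 52.1 and 43.5 RPM in WT and 38.4, 44.2 and 37.3 RPM in DM, so its groups overlapped, and the log2 change was -0.39 (adjusted edgeR p 0.0233). Without WT replicate 1, or DM replicate 1 or 3, Cdk1 was not called, nor was Ccna2 without DM replicate 1 or Cdc20 without DM replicate 3. Cdk6, a G1 kinase of blood progenitors, was the only member not called in the body, with 382, 323 and 390 RPM in WT and 317, 318 and 297 RPM in DM (-0.23, SE 0.106, adjusted edgeR p 0.0558). Scaled by TMM, by DESeq2 or by the authors' size factors, Cdk6 passed as lower.

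Both CDK inhibitors held, which restrain the G1 kinases, were also lower: Cdkn2c by 0.55 (adjusted edgeR p 0.0176) and Cdkn2d by 0.46 (adjusted edgeR p 0.0168). Their summed body signal was 24.1, 27.7 and 25.1 RPM in WT and 16.9, 18.1 and 19.1 RPM in DM. E2f7 and E2f8, the atypical E2F repressors that are themselves made in S phase, fell by 0.50 and 0.48. E2f8 held 43.9, 41.9 and 45.8 RPM in WT and 31.0, 32.9 and 30.3 RPM in DM, with a wide gap between the groups (SE 0.0936, adjusted edgeR p 0.00196). Without DM replicate 1 neither inhibitor nor E2f7 was called. Cdkn2c and E2f7 were also lost without DM replicate 2, Cdkn2d without DM replicate 3 and Cdkn2c without WT replicate 2, and E2f8 stayed called in all 6 refits.

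The kinetochore genes, the mitotic kinesins and the cohesin and condensin genes were all called lower. All 5 kinetochore genes including Aurka, the spindle pole kinase, were called lower, with the largest falls in Cenpm at -0.72 and in Cenpf, a large protein of the outer kinetochore, at -0.59. Cenpf held 45.5, 33.7 and 34.7 RPM in WT and 23.3, 28 and 24.7 RPM in DM. The 6 mitotic kinesins were called lower as well. Kif20a, a motor of the central spindle, fell by 0.60, Kif23, of cytokinesis, by 0.51 and Kif11, which pushes the spindle poles apart, by 0.37. Kif20a lies over spans of Brd8 and Cdc23, so its reads may include theirs. Summed over the group, body signal was 210, 176 and 184 RPM in WT and 136, 137 and 133 RPM in DM. Cohesin and condensin genes had the smallest falls of the core groups by median: Ncapd2 fell by 0.34, Ncapd3 by 0.29 and Rad21, the cohesin subunit cut at anaphase, by 0.28. Without DM replicate 3 these 3 genes, Aurka, Cenpv, Kif11 and Kif2c were not called, which left 3 of the 5 kinetochore genes and 4 of the 6 mitotic kinesins. Without DM replicate 1 Ncapd3, Rad21, Cenpv and Kif22 were lost.

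In DNA repair, 8 of 9 genes were called lower. This count was 2, 4 and 3 without DM replicate 1, 2 and 3, and a replicate block gave 5. By sign 8 of 9 were lower each time. Rad51b, a gene of recombination repair and of great length, fell most clearly, from 133, 118 and 121 RPM to 72.4, 69.6 and 62.8 RPM (log2 change -0.86, SE 0.102, adjusted edgeR p 1.97e-04). Rad50, of the MRE11 break-sensing complex, fell least, by 0.26 (adjusted edgeR p 0.0442), and lost its call in 5 of the 6 refits that left out a library. Xrcc4, of the end-joining ligase complex, rose by 0.53 (adjusted edgeR p 0.00623) and was not called by DESeq2. The repair genes thus held the only core gene besides Pold4 that was higher in DM.

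The promoters of the members could be read from RefSeq (GRCm38.p6, the build named mm10 in the submitters' processing notes) as windows from 250 bases before to 50 after each start. Of 72 members 59 matched by symbol, and those without a match included Ccna2, Ccnd2, Cdc42bpg, Cep76, Kif13b, Kif19a, Kif20a, Pole, Rad21, Rad50, Rad54b and Rfc2. Of the 59, 7 have a RefSeq start 288 to 12004 bp from that of the counted transcript, beyond a limit of 250 bp. Both strands were searched for the E2F forms TTTCCCGC, TTTCGCGC, TTTGCCGC and TTTGGCGC, for the CHR forms TTTGAA and TTCGAA, and for CCAAT, none of which lies within another. An E2F form stood in 10 of 59 member promoters (16.9%), against 2.26% of all 32851 promoters. A CHR form stood in 18 of 59 (30.5%, against 19.2%), CCAAT in 36 of 59 (61.0%, against 37.4%), and CHR with CCAAT in 13 of 59 (22%, against 7.52%). Among the 52 promoters within the limit, 8 had an E2F form, 15 a CHR form and 35 CCAAT. In the 4 other groups, 26 of 30 genes matched, and E2F forms stood in 1 (3.85%), CHR forms in 5 (19.2%) and CCAAT in 10 (38.5%). Fewer than 80% of the genes matched in the core groups alone (78.6%), in the table as a whole (78.3%) and in the members within the limit (72.2%), so shares over these are void and not given. A match describes letters and shows no bound factor. The 250 bases before the start are printed for 6 members, 5 of which fell in the body and Cdc42ep2 as the member that rose most; capitals mark the motifs, and each sequence runs 5′ to 3′ along the gene's strand.
Cdk1 chr10:69352913-69353162 (minus strand): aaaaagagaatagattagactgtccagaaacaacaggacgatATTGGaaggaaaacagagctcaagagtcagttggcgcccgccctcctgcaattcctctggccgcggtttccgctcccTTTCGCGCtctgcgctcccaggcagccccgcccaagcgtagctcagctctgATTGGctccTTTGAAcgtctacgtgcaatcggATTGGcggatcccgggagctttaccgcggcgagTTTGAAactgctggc
Cdc20 chr4:118437344-118437593 (minus strand): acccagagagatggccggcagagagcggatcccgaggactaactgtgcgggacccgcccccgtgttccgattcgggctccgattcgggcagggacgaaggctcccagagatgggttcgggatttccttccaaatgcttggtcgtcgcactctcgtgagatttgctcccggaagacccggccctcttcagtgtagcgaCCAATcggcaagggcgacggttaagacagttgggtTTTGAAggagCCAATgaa
Kif11 chr19:37376132-37376381 (plus strand): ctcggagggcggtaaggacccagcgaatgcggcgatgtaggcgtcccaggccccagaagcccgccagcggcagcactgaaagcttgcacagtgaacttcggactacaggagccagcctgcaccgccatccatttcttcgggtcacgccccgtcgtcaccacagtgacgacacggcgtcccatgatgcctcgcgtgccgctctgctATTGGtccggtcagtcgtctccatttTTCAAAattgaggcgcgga
Kif18b chr11:102925125-102925374 (minus strand): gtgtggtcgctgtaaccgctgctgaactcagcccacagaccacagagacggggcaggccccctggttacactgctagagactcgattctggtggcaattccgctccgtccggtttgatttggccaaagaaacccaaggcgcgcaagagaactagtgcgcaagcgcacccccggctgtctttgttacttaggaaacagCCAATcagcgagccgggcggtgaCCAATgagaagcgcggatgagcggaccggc
Mcm5 chr8:75109259-75109508 (plus strand): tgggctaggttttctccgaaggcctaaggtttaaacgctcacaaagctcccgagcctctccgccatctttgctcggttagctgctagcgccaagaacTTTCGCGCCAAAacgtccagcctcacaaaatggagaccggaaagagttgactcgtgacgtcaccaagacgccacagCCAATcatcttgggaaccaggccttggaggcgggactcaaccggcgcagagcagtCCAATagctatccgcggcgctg
Cdc42ep2 chr19:5924817-5925066 (minus strand): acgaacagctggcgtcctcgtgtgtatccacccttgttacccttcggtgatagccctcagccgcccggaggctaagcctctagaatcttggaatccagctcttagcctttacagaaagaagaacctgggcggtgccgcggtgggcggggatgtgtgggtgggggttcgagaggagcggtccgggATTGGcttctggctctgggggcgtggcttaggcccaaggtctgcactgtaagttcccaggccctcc
Cdk1 combines 1 E2F form, 2 CHR forms and 3 CCAAT boxes; Cdc20, Kif11 and Kif18b have a CHR form close to the start, which in Kif18b lies 4 bases after it. Mcm5 has 2 overlapping E2F forms and 2 CCAAT boxes before the start. Cdc42ep2 has a single CCAAT box and neither of the other motifs.

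**Figure D3:**
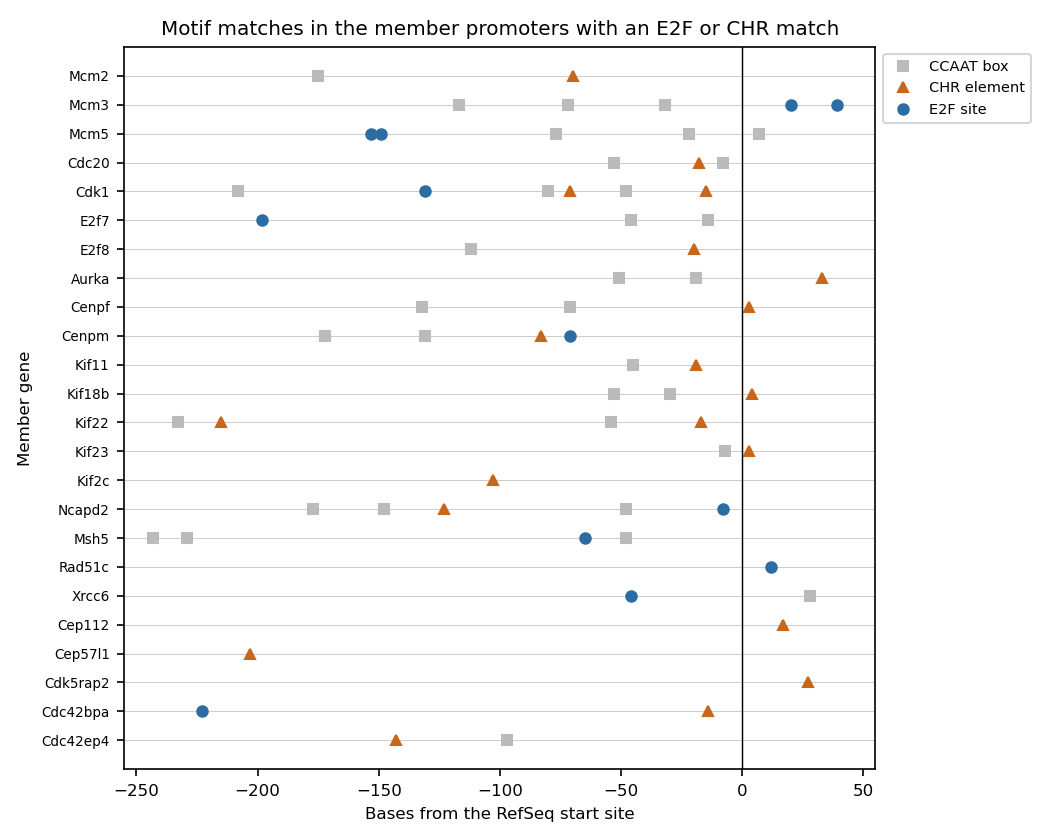
Positions of motif matches in the 24 member promoters with an E2F or CHR match, in bases from the RefSeq start site, which in 3 of them lies beyond 250 bp from the start of the counted transcript (blue circles: E2F forms; orange triangles: CHR forms; grey squares: CCAAT boxes). Core genes fill the rows down to Xrcc6, and 5 members of the other groups follow below them.

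Polymerase in the head windows was lower in DM as well, but few members passed the test. In sign 59 of 72 members and 39 of the 42 core genes had a negative head change, with medians of -0.45 and -0.53 where the table had -0.11. The test called 6 members, 5 lower and 1 higher, against 20.3% of all tested genes (10.7% lower, 9.62% higher), so the members' share of calls was not above the background. Head RPM did not overlap between the groups, with DM lower, in 33 of 72 members and 25 of 42 core genes, against 23.3% of the table, and with DM higher in 2 members, against 17.7%. In the authors' deposited table, whose percentiles rank each head change, the median percentile was 15.9 for the core genes and 56.9 for all genes held, and 30 of 42 core genes (71.4%) lay under the 25th percentile, against 33.9% of the table. WT heads were spread by a median coefficient of variation of 29.9% over the members and DM heads by 12.8%.

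The called head changes came from genes of different steps of the cycle. Ccnd2 (ENSMUSG00000000184.12, chromosome 6, 127125162 to 127151060), the D-type cyclin that answers to growth factors, had 25.2, 79.4 and 45.5 head RPM in WT and 20.0, 23.9 and 21.9 in DM, which gave a log2 change of -1.19 (SE 0.335, adjusted edgeR p 0.0229). Its WT libraries differed from each other by more than the lowest of them differed from DM, and without WT replicate 2 the change was -0.69 (adjusted edgeR p 0.0121). Its body fell by 0.35, from 108, 132 and 154 RPM to 103, 108 and 98.4 RPM, with the lowest WT library level with DM, and that body call held only without WT replicate 1 among the refits with a library left out.

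Rad51c (ENSMUSG00000007646.13, chromosome 11, 87376645 to 87404523), a gene of recombination repair, had 4.31, 4.37 and 2.62 head RPM in WT and 1.36, 1.43 and 1.75 in DM, the largest fall among the called heads at -1.31 (SE 0.309, adjusted edgeR p 0.013). Nek2 (ENSMUSG00000026622.15, chromosome 1, 191821444 to 191833050), a kinase that loosens the link between centrosomes, had 12.6, 19.1 and 10.5 head RPM in WT and 6.26, 8.01 and 6.86 in DM (-0.99, SE 0.283, adjusted edgeR p 0.0242). In both genes each WT library was above each DM library, and their bodies fell too, by 0.72 and 0.85, though the body call of Rad51c was lost without WT replicate 1 and without each DM library.

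The mitotic motors Kif18b, which trims microtubule ends, and Kif11 completed the called falls. Kif18b (ENSMUSG00000051378.10, chromosome 11, 102905529 to 102925124) had 11.4, 16.3 and 8.44 head RPM in WT and 6.22, 5.64 and 5.86 in DM (-1.02, SE 0.283, adjusted edgeR p 0.0219). Kif11 (ENSMUSG00000012443.4, chromosome 19, 37376403 to 37421859) had 18.1, 29.7 and 17.3 head RPM in WT and 10.2, 12.7 and 12.4 in DM (-0.88, SE 0.276, adjusted edgeR p 0.0349). For both, the promoter sequences are among those printed above.

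Cdc42ep2 (ENSMUSG00000045664.5, chromosome 19, 5915636 to 5924816), an effector of the small GTPase CDC42, was the only member whose head was called higher. It had 1.57, 1.26 and 1.57 head RPM in WT and 4.33, 4.85 and 4.60 in DM, which gave a log2 change of 1.63 (SE 0.277, adjusted edgeR p 0.00541), and its body rose in step by 1.41. Its groups were far apart in both windows. Cdc42ep2 stayed called in the head in all 6 refits that left out a library, whereas Ccnd2, Nek2, Kif18b and Kif11 lost their calls without any 1 of the DM libraries and Rad51c without DM replicate 1 or 2. Ccnd2 and Kif11 also lost theirs without WT replicate 3. The number of members called in the head went down to 1 without DM replicate 1 and to 2 without DM replicate 2 or 3, and up to 23 without WT replicate 1 and to 14 without WT replicate 2.

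**Figure D4:**
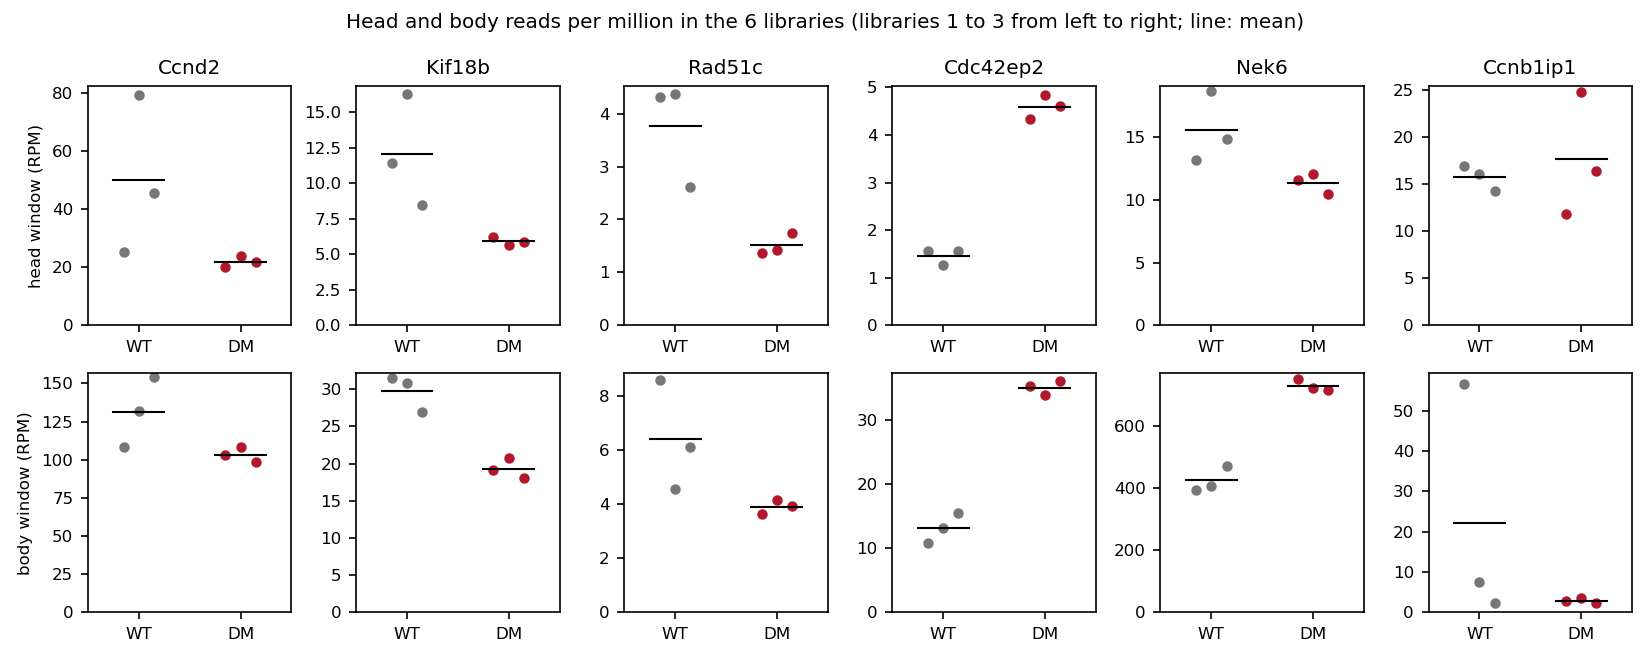
Head (upper row) and body (lower row) RPM of 6 members in the 3 WT (grey) and 3 DM (red) libraries, replicates 1 to 3 from left to right, with a line at each group mean. The WT heads of Ccnd2 range from 25.2 to 79.4 RPM, Nek6 rises in the body and not in the head, and the body of Ccnb1ip1 is high in WT replicate 1 only.

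Setting both windows side by side, 53 members were lower in head and body by sign, 11 higher in both, 6 higher in the body with a lower head, and 2 lower in the body with a higher head. The ratio of head to body was tested as the interaction of window and group with the library as a block. It called 0 of 72 members, where 0.0776% of the table was called (2 genes of 2577), and 3 members had an unadjusted p under 0.05. The median ratio change over the members was -0.14, against -0.26 for the table. The members' median turned to 0.14 with separate TMM factors for the windows, a fit that also dropped the library block. It was 0.11 without WT replicate 2. DESeq2 called 1 member.

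**Figure D5:**
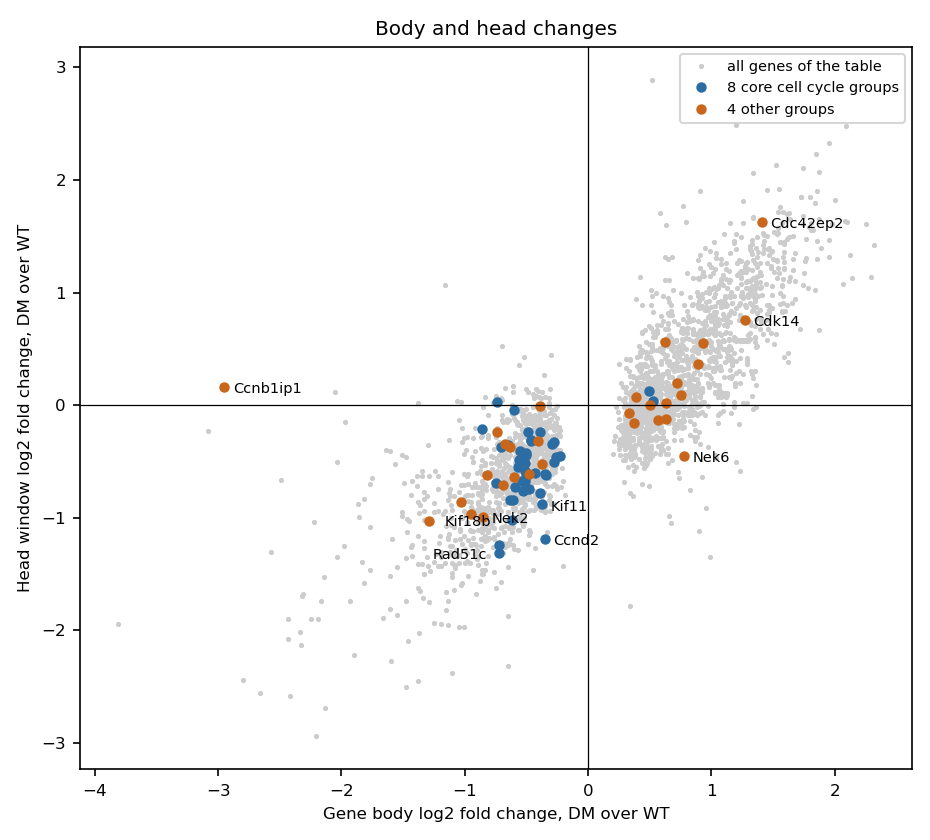
Head window against gene body log2 change of DM over WT for the core members (blue), the other members (orange) and all genes of the table tested in both windows (grey). Nearly all core members lie in the lower left, and Nek6 and Ccnb1ip1 stand apart from the diagonal.

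Nek6 (ENSMUSG00000026749.11, chromosome 2, 38511643 to 38594606), a mitotic kinase of the NEK family, came nearest to a call. Its body rose from 393, 408 and 472 RPM to 752, 722 and 714 RPM (log2 change 0.78, SE 0.103, adjusted edgeR p 3.26e-04), while its head had 13.2, 18.7 and 14.9 RPM in WT and 11.6, 12.1 and 10.5 RPM in DM (-0.45, adjusted edgeR p 0.21). Head reads per 100 body reads were therefore 3.36, 4.57 and 3.16 in WT and 1.54, 1.68 and 1.46 in DM, with no overlap. The ratio change was -1.23 (SE 0.247, unadjusted p 2.42e-04, adjusted edgeR p 0.0966). It passed by DESeq2 (adjusted p 0.00148) and with separate TMM factors and no library block (adjusted edgeR p 0.015). It also passed without WT replicate 1 or 2 (adjusted edgeR p 0.0418 and 0.00743), and its adjusted p reached 0.669 without DM replicate 1. Nek6 overlaps Psmb7. The summed body signal of the centrosome group went from 799, 746 and 894 RPM to 1043, 1011 and 994 RPM although 8 of its 10 genes were called lower (4 or 5 without any 1 of the DM libraries). Without Nek6 the sum fell, from 406, 338 and 423 RPM to 292, 289 and 280 RPM.

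Ccnb1ip1 (ENSMUSG00000071470.4, chromosome 14, 50789248 to 50807732), which encodes a ubiquitin ligase of meiotic crossing-over and not a cyclin, had the largest body change of any member, and 1 library decided it. Its body held 56.6, 7.54 and 2.36 RPM in WT and 2.71, 3.46 and 2.45 RPM in DM, which gave a log2 change of -2.95 (SE 0.972, adjusted edgeR p 0.0173). Without WT replicate 1 it was -0.74 (adjusted edgeR p 0.132), and without DM replicate 1 its adjusted edgeR p was 0.0502. Its head did not follow, with 16.9, 16.1 and 14.3 RPM in WT and 11.8, 24.8 and 16.4 RPM in DM. Cdk18 was the remaining gene with an unadjusted p under 0.05 for the ratio (-0.73, adjusted edgeR p 0.277), with a body that rose by 0.63 and a head change of -0.12 that was not called.

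The members that rose in the body were mostly CDK-named and CDC42 genes that lie outside the core cycle. Cdk14, a kinase tied to Wnt signalling, rose from 53.0, 40.8 and 54.8 RPM to 124, 108 and 128 RPM (log2 change 1.27, SE 0.135, adjusted edgeR p 1.16e-04), and Cdk20 rose by 0.89 from low levels. In the CDC42 group 5 of 6 genes were called higher, and the sum went from 186, 177 and 182 RPM to 308, 263 and 319 RPM. Cdc42bpg, a kinase that binds CDC42, was its one fall at -0.95, with 26.1, 12.4 and 12 RPM in WT and 8.62, 9.10 and 8.56 RPM in DM, of which WT replicate 1 was the highest. The kinesins of transport and cilia divided evenly: Kif1c, Kif16b, Kif3b and Kif13b were called higher by 0.33 to 0.57, and Kif19a, Kif17, Kif7 and Kif3c lower by 0.67 to 0.82. Of these, Kif13b and Kif3b were not called with TMM factors. With DESeq2 Kif13b, Kif16b and Kif3b were not called, and Kif13b turned to a lower sign. The even split thus did not hold with DESeq2, which called 1 gene of this group higher and 4 lower. Cep112 and Cep126, centrosomal proteins, had the largest falls of their group at -1.29 and -1.03, on WT values led by replicate 1. Without DM replicate 2 or 3 these calls and that of Kif7 were lost, Kif7 and Kif13b were lost without DM replicate 1, Kif13b also without DM replicate 3 or WT replicate 2, and Kif3c without DM replicate 2.

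Per kilobase of body and 1000000 reads (RPKM), the members differed by length as well as by signal. The highest body levels in WT were those of Pold4 at 10.6 RPKM, Rfc2 at 7.41 RPKM, and Ccnd2 and Nek6 at 5.13 RPKM each. Cep112 was the lowest at 0.0146 RPKM. Core genes were shorter than the table as a whole, with a median body of 19.1 kb against 33.5 kb, while the 4 other groups had 41.4 kb. Median body level went from 1.54 to 1.05 RPKM in the core groups and from 0.931 to 1.06 RPKM over the table. Of the 72 members, 12 overlapped the span of another protein-coding gene, among them Rfc2 and Nek6.

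Genes of the same processes whose names the rule does not match showed the same direction. Of 158 such genes listed, 40 were held, and 37 of them were called lower and 2 higher in the body (median -0.43), on the same selected rows. Over all genes tested, 42.1% were called lower and 57.4% higher in the body. Without DM replicate 1, 2 and 3 the number called lower was 19, 28 and 20, and the table's share in these refits is not given. Top2a, the topoisomerase of mitotic chromosomes, had 84.0, 60.9 and 61.8 body RPM in WT and 50.0, 54.3 and 48.7 in DM (-0.44, adjusted edgeR p 0.0155). Ube2c, of the anaphase-promoting complex, had 42.6, 36.9 and 36.1 RPM in WT and 23.7, 26.5 and 23.7 in DM (-0.65, adjusted edgeR p 0.00105). Plk2 and Ercc6 were those called higher, at 0.85 and 0.56, and Pds5a was not called (adjusted edgeR p 0.0851). In the head 5 of the 40 were called lower (Blm, Racgap1, Hmmr, Espl1 and Ung) and Plk2 higher, with a median of -0.54. Over all genes tested, 10.7% were called lower and 9.62% higher in the head, so the share called lower was near the background.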

How the data were processed

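The authors deposited raw read counts per transcript for a head and a body window in each of 6 libraries and a library total of unstated origin. From the authors' deposited table were also used log2 fold changes and adjusted p-values of the body comparison, a mean signal, from which their size factors were solved, and percentiles of the head change, a score from 0 to 100. Per the submitters' processing notes the tools included Bowtie 1.1.2 and bedtools 2.28 and the builds mm10 and dm3. How strand and multiply mapped reads were handled is not given in the sources used here. All 3022 rows (2744 genes) had an adjusted p of at most 0.0498 in the authors' deposited table. Each gene is represented by the transcript with most body reads on average.

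Counts passing filterByExpr were tested with R 4.3.3, edgeR 4.0.16 and limma 3.58.1, with the deposited library totals as library sizes, since factors from rows selected on the comparison do not scale all transcripts. The standard error is the size of the log2 fold change divided by the square root of F. In simulated counts, 200 genes were given a 2-fold change, of which 100% were called in bodies (2741 genes), 97% in heads (2598 genes) and 70.5% in ratios (2591 genes). The simulation used the same fixed dispersion in both windows and changed only genes above a minimum mean head count. It was not matched to the WT heads, whose median coefficient of variation over the table was 32.2%. These shares therefore do not measure recovery in the real libraries. DESeq2 1.42.0, other scalings, filters, a stricter threshold, the longest row per gene, a replicate block and leaving out each library were the alternatives. The labels do not say whether equal replicate numbers pair libraries, and the main fits used no pairing by number. Deviations from group means correlated between same-numbered libraries at -0.051, -0.181 and 0.462 in bodies, which does not settle it.

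The members, role groups, gene lists and naming rule were chosen with earlier results of these data known. The rule named 11 held genes of 32 listed, the 2 largest body changes per role group (mean of at least 50 counts, no overlap), head calls and the lowest ratio p-values. Other members were named after their values were seen: those that went against their group, overlapped another gene or served as examples. The values of 1 member that the rule named are not reported here, though it is counted in its group.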

Additional observations from a re-analysis of the deposited data

How the results depend on the processing

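In the body, Kif13b under DESeq2 was the only member to change sign in any alternative run. In the head up to 8 members changed sign (without WT replicate 2), and in the ratio up to 22 (separate TMM factors) and 20 (without WT replicate 2). The ratio fit with separate TMM factors also left out the library block, so it differs from the main fit in more than scaling. In the body, 71 members were called (17 higher, 54 lower). DESeq2 called 10 higher, an adjusted p under 0.01 called 31 (16 lower), and leaving out a library gave 44 to 69 (15 to 17 higher, 29 to 53 lower). The members' median of -0.49 became -0.82 with DESeq2 and -0.70 with TMM factors, which also moved the table's median from 0.40 to 0.06 and 0.18, so members and table moved together. In the head, 6 members were called (1 higher, 5 lower). DESeq2 called 21 (3 higher, 18 lower), TMM factors 23 (3 higher, 20 lower), and an adjusted p under 0.01 called 1 (0 lower). Leaving out a library gave 1 to 23 (1 to 5 higher, 0 to 22 lower). For the ratio 0 were called. DESeq2 called 1 (1 lower), separate TMM factors 2 (1 higher, 1 lower) and leaving out a library 0 to 1 (0 to 1 lower). The median ratio change of -0.14 reversed to 0.14 with separate TMM factors and to 0.11 without WT replicate 2, within a range of -0.32 to 0.11 over the libraries left out. The cause of these changes was not tested, except that fewer libraries were fitted when 1 was left out. The table's share of calls in each run is not given, so these member counts are not read against it.

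With the replicate number as a block, the body fit called 67 members, the head fit 16 (2 higher, 14 lower) and the ratio fit 2 (1 higher, 1 lower). The labels do not say whether same-numbered libraries were paired, so these counts stand only as an alternative. Among 978 alternative values of named members, 878 kept direction and side of the threshold, 57 lost their call, 43 gained one and 0 reversed a call. Under a filter of at least 50 mean head counts, 55 of 72 members remained and 6 were called. Without Nek6, a setting chosen after seeing the data, the fold of summed body signal went from 1.01 to 0.908 over all members, from 1.32 to 1.17 over the 4 other groups and from 1.25 to 0.738 in the centrosome group. Intervals and tests cover counting error and the spread of 3 libraries per group.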
